A study of Mus musculus with 6 samples.

Results

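Solute carriers are the membrane proteins that move amino acids, sugars, ions, metals, vitamins and nucleotides across the plasma membrane and across the membranes of lysosomes, Golgi and mitochondria. The genes described here are the mouse genes with an Slc symbol that reached a mean of at least 5 CPM (counts scaled to a common library total) over the 6 libraries of the series, without 9 transporters of glucose, lactate, arginine, cystine, iron and heme that were left out by name. There were 156 of them among the 57010 genes counted. The table held 379 Slc symbols, of which 305 had at least 1 count and 165 reached 5 CPM before the 9 were left out. The members fell into 41 numbered families, and the largest of these was the mitochondrial carrier family Slc25 with 29 genes. Of the 156, 152 encode carriers. The other 4 bear the symbol only through a relation to a carrier: the scaffold proteins Slc9a3r1 and Slc9a3r2, the adaptor Slc4a1ap and Slc7a6os, which lies opposite Slc7a6. The choice of members used the mean level over all 6 libraries and not the difference between the groups. Just inside the threshold lay Slc22a17 at 5.001 CPM, Slc18a2 at 5.21 CPM and Slc18b1 at 5.25 CPM, and just outside lay Slc25a26 at 4.93 CPM, Slc4a8 at 4.81 CPM and Slc10a6 at 4.64 CPM.

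The RNA came from the hearts of mice of the genotype Ova DTG, in which ovalbumin is expressed in the heart alone, per the series' design text. Per the labels, all of the mice had been given naive ovalbumin-specific CD8 T cells (OTI cells, 100000 cells unless stated otherwise, by retro-orbital injection), and cells positive for CD45, the common leukocyte antigen, and negative for CD90.2, a T cell antigen, were purified from the heart. In 3 libraries the mice had received immune checkpoint inhibitors (ICI), intraperitoneal antibodies against CTLA-4 (clone 9D9, 200 µg) and PD-1 (clone RPM1-14, 200 µg), and in the other 3 an isotype control antibody, so the transgene and the OTI cells were common to both groups. The promoter of the transgene, the age and sex of the mice, the time of collection and the dose of isotype antibody are not given in the labels, and the sample titles of both groups name myocarditis. The 6 libraries carry 1 batch date and are numbered 1 to 3 as biological replicates within each group. The single comparison that the design implies asks what differed in immune cells of the heart, T cells apart, between mice given checkpoint antibodies and mice given isotype; groups are named here by their labels.

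The libraries held 21528274 to 30736316 counts, and the 156 genes took 0.964% to 1.06% of the counts of each. Summed CPM of 6 general macrophage markers was 9212 to 10455 in ICI and 6054 to 7338 in isotype libraries. Of these 6, 3 were called higher, 1 lower and 2 in neither direction, with a median log2 fold change of 0.28. The sum of 5 T cell markers was at most 2.36 CPM. Resident macrophage markers summed to 8085 to 9154 CPM in ICI against 250 to 322 CPM in isotype libraries, and monocyte markers to 542 to 829 CPM against 3909 to 8246 CPM. In such bulk libraries, a change in the proportion of a cell type and a change in RNA per cell cannot be told apart, and this holds for each difference below. Replicate 3 of each group carried Xist (2786 counts in ICI, 1844 in isotype) with few counts of 4 Y-linked genes (6 and 130), while replicates 1 and 2 had 3620 to 5821 Y-linked counts and at most 12 of Xist. Without replicate 3 of both groups, 36 members were called higher and 63 lower, beside 4776 and 4528 over all genes tested.

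Transport in macrophages is known to follow their state. Cells that grow or secrete take up more amino acids and glucose, lysosomal carriers return the products of digested material to the cytosol, zinc and copper transporters set the metal supply of the phagosome, and mitochondrial carriers exchange adenine nucleotides, phosphate and metabolites between the cytosol and the matrix. Many carriers work only with a partner protein, such as the heavy chain Slc3a2, which brings amino acid exchangers of family 7 to the cell surface.

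Fewer solute carrier transcripts were higher than lower in ICI libraries: 39 of 156 were called higher, 71 lower and 46 in neither direction (edgeR's quasi-likelihood test, adjusted p under 0.05). Over all 14575 genes tested, 68.9% were called, 35.0% higher and 33.9% lower. Among the 10024 tested genes at a mean of 5 CPM or more, from which the members were drawn, 71.7% were called, 29.0% higher and 42.8% lower, against 70.5%, 25.0% and 45.5% of the members, so the shares of the members lay near that background. The median log2 fold change was -0.18 for the members, -0.14 for tested genes at 5 CPM or more and 0.03 for all tested genes. In CPM, the 3 ICI libraries did not overlap the 3 isotype libraries for 106 members (67.9%), against 75.3% of all tested genes at 5 CPM or more. Of the called members, 19 were over 2-fold higher and 16 over 2-fold lower. The corresponding background shares were 11.1% of genes over 2-fold higher and 13.7% over 2-fold lower.

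The balance of rises and falls depended on the scaling. The main test used TMM factors, which ran from 0.921 to 1.105 per library. Over all genes tested the main fit called 5102 higher and 4938 lower. Upper-quartile factors gave 55 members higher and 46 lower, beside 6155 and 3849 over all genes tested. Library totals without factors gave 57 higher and 45 lower, beside 6254 and 3728. The counts over all genes thus turned toward rises as those of the members did. The median over all tested genes went from 0.03 to 0.21 and 0.23 (log2) under these scalings, so a small difference is relative to the chosen centre. Of the 71 members called lower, 49 had separate CPM ranges in the groups, and the other 22 overlapped. All 39 members called higher had separate ranges, as did 18 of the 46 without a call. These ranges are in CPM on library totals, a scaling that sets ICI levels higher than the fit does. Rises therefore separate more readily than falls, and the 2 counts do not compare how clean they are. Against a 1.5-fold change, 24 members were higher and 23 lower, beside 3110 and 2410 over all genes tested. All 10 members under 5 CPM in isotype libraries were called higher, and both members under 5 CPM in ICI libraries were called lower, which the threshold on the mean over the groups had to favour. The 10 were Slc9a3r2, Slc13a3, Slc14a1, Slc15a2, Slc17a9, Slc18a2, Slc18b1, Slc22a17, Slc30a4 and Slc46a1, and the 2 were Slc4a11 and Slc52a3. They are counted in the classes below. The 144 members at 5 CPM or more in both groups held 29 higher (20.1%) and 69 lower (47.9%). The shares of all genes under that stricter filter were not counted, so these are not compared with a background.

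**Figure D1:**
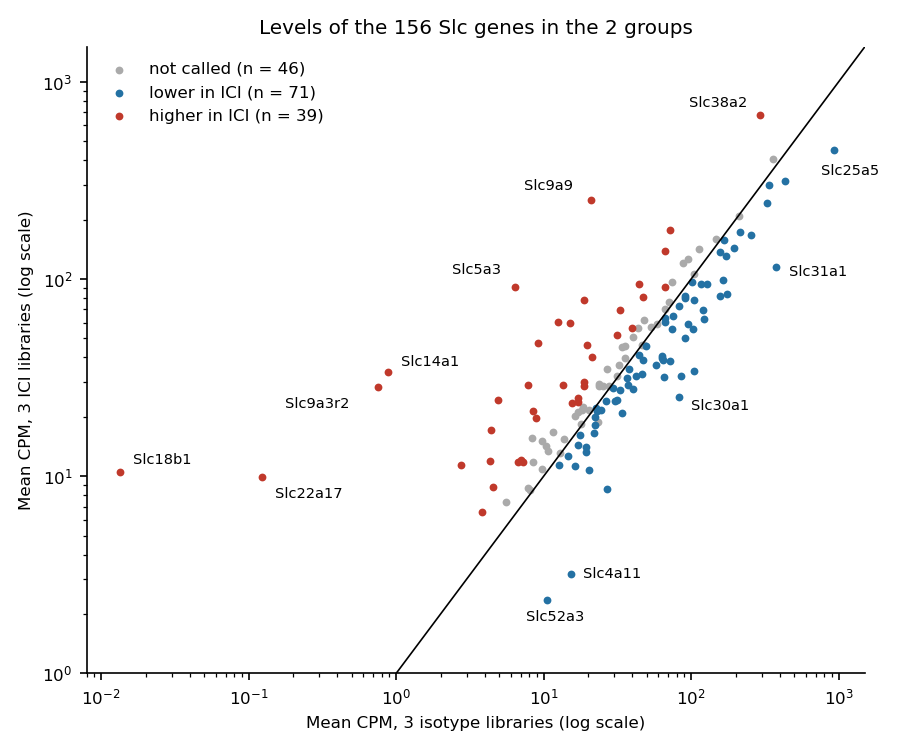
Mean CPM of each of the 156 genes in the 3 isotype libraries (horizontal, log scale) and the 3 ICI libraries (vertical, log scale), coloured by the call, with the line of equal CPM. Most genes lie near the line, 4 genes at the left were near absent from isotype libraries, and Slc25a5 was the most abundant in isotype libraries.

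**Figure D2:**
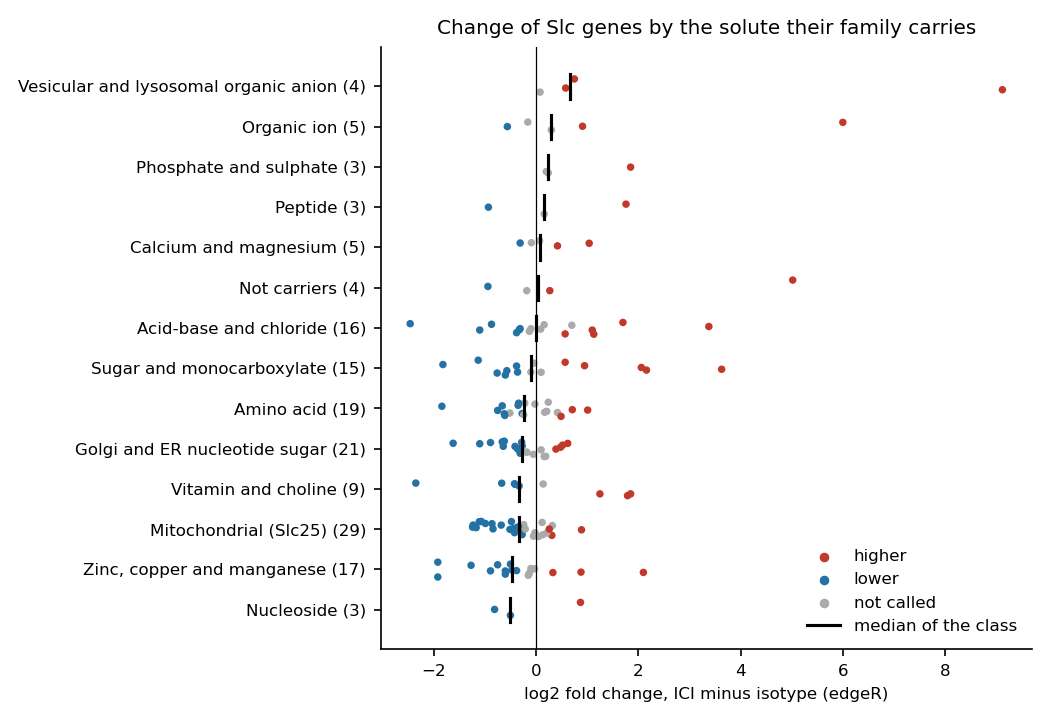
log2 fold change (ICI minus isotype, edgeR) of each gene, by the class of solute its family carries, with the number of genes in parentheses and the class median as a bar; classes of fewer than 3 genes are not drawn. Rises and falls occur side by side in most classes, and the point beyond 8 is Slc18b1, whose fitted value rests on 1 isotype count and depends on the prior count.

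Metal transporters held the largest fold falls among members at 5 CPM or more in both groups, those of Slc30a1 and Slc31a1. Cells take up copper through Slc31a1 (CTR1), Slc31a2 (CTR2) is its endosomal relative, the Slc30 proteins (ZnT) move zinc out of the cytosol and the Slc39 proteins (ZIP) move it in. Slc30a1, the zinc exporter of the plasma membrane and a textbook target of the zinc-sensing factor MTF1, and the 2 copper transporter genes were lower in ICI libraries, while Slc30a4, a zinc exporter of intracellular vesicles, was higher. Slc30a4 was under 5 CPM in isotype libraries, so the threshold on the mean favoured its rise. The 250 bases before the RefSeq start of these 4 genes are shown because the genes moved strongly in opposite directions within 1 class; they were chosen after the values were seen. They were read from RefSeq promoter windows on GRCm38.p6, an older build than the GRCm39 named for the counts. Capitals mark matches on either strand to the core of the metal response element, searched as TGCACNC and TGCGCNC; matches of the 2 strings do not coincide, since they differ at a fixed base.
Slc30a1 (chr1:191906531-191906780, plus strand): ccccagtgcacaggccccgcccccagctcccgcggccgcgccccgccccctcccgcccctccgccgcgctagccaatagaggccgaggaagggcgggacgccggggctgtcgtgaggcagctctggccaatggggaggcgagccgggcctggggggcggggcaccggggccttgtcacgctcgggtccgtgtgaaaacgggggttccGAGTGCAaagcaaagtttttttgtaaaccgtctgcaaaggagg
Slc30a4 (chr2:122702664-122702913, minus strand): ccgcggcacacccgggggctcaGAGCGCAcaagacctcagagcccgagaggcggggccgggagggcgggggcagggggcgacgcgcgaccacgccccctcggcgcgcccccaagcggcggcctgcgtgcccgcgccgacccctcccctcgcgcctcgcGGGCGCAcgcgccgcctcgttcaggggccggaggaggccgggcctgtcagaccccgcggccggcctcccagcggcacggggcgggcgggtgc
Slc31a1 (chr4:62360451-62360700, plus strand): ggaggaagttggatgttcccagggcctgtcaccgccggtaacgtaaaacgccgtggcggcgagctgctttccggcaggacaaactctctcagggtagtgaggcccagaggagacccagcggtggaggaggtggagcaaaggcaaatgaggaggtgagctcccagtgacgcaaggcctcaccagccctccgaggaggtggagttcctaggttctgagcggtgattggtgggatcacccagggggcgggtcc
Slc31a2 (chr4:62286179-62286428, plus strand): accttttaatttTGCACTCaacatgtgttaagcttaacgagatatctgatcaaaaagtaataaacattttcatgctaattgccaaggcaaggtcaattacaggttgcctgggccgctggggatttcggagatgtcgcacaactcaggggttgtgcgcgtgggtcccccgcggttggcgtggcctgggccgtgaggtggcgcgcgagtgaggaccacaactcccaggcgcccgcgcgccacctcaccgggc

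The Slc30a1 window held 1 match to TGCACNC, 43 bases before the start. The Slc30a4 window held 2 matches to TGCGCNC, 228 and 92 bases before the start, and the Slc31a2 window 1 match to TGCACNC, 238 bases before it. The Slc31a1 window had neither string. Of the 156 members, 120 had a RefSeq promoter window, with 159 windows in all. In windows of this length TGCACNC occurred in 10.4% of all 32851 windows, in 19 of the 159 (11.95%) and in 4 of the 17 windows of zinc and copper genes (23.53%). TGCGCNC occurred in 12.51% of all windows, 18.24% of the members' windows and 3 of the 17 (17.65%). The amino acid response element, searched as TGATGNAAT on both strands, occurred in 0.82% of all windows and in none of the 159. At that share few matches would be expected in 159 windows, and bases after the start were not searched. The count therefore does not show that the members lack such elements. Such matches are a description of letters and were not tested as sites.

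Slc30a1 stood at 22.4, 24.4 and 28.6 CPM in ICI replicates 1 to 3 and at 91.7, 75.4 and 80.4 CPM in the isotype replicates. The ICI values all lay well under the isotype values, and the fitted level was 3.79-fold lower (log2 -1.92 ± 0.11 SE, edgeR adjusted p = 4.55e-07, n = 3 and 3). Slc30a4 stood at 24.7, 26.1 and 22.2 CPM against 4.20, 4.54 and 6.05 CPM, a 4.29-fold rise (log2 2.10 ± 0.15 SE, edgeR adjusted p = 1.94e-06). It belongs to the 10 members under 5 CPM in isotype libraries. The CPM ranges of the 2 exporters met in ICI libraries and were far apart in isotype libraries.

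Slc31a1 measured 103, 139 and 102 CPM in ICI and 389, 398 and 341 CPM in isotype libraries, 3.77-fold lower in ICI (log2 -1.92 ± 0.14 SE, edgeR adjusted p = 3.29e-06). Slc31a2 measured 87.3, 88.2 and 76.0 CPM against 188, 190 and 148 CPM, 2.40-fold lower (log2 -1.27 ± 0.13 SE, edgeR adjusted p = 1.64e-05). The 2 copper genes lie near each other on chromosome 4, with 1 protein-coding gene between them, and in both the ICI and isotype ranges were separate. In the class as a whole, 10 of 17 genes were lower (58.8%), 3 higher (17.6%) and 4 in neither direction. Among all tested genes at 5 CPM or more, 42.8% were lower and 29.0% higher. With upper-quartile factors 8 genes of the class were lower and 3 higher, while over all genes tested 3849 were then lower and 6155 higher. The other falls were modest: Slc30a7, a Golgi zinc transporter, went from 93.3 to 97.7 CPM in isotype down to 53.6 to 66.9 CPM in ICI libraries (log2 -0.89), and Slc39a7, which releases zinc from the endoplasmic reticulum, from 169 to 178 down to 123 to 137 CPM (log2 -0.60). For Slc39a7, 80.7% of exon bases also belong to the overlapping transcript Gm20427, so its reads cannot be assigned with certainty. The zinc importer Slc39a10 rose from 30.2 to 37.8 up to 65.0 to 73.6 CPM (log2 0.88 ± 0.11 SE). Slc39a14, which carries zinc, iron and manganese, was called lower at an edgeR adjusted p of 0.0463, with isotype replicate 2 at 43.7 CPM and the other 5 libraries at 26.3 to 29.3 CPM; the call was kept under 5 of 18 alternatives and lost without isotype replicate 2 and without any 1 of the ICI replicates.

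Other genes of zinc buffering moved as follows. The metallothioneins bind zinc and copper in the cytosol. Mt1 stood at 275, 184 and 263 CPM in ICI and at 130, 117 and 122 CPM in isotype libraries (log2 0.77 ± 0.14 SE). Mt2 stood at 20.9, 11.3 and 19.8 CPM against 4.30, 5.60 and 4.52 CPM (log2 1.65 ± 0.24 SE), so both metallothioneins were higher in every ICI library than in any isotype library. Mtf1 fell by 0.41 on the log2 scale (28.6 to 30.3 against 31.8 to 35.8 CPM) but lost the call with upper-quartile factors and with library totals alone. Mt3 was too low to test.

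**Figure D3:**
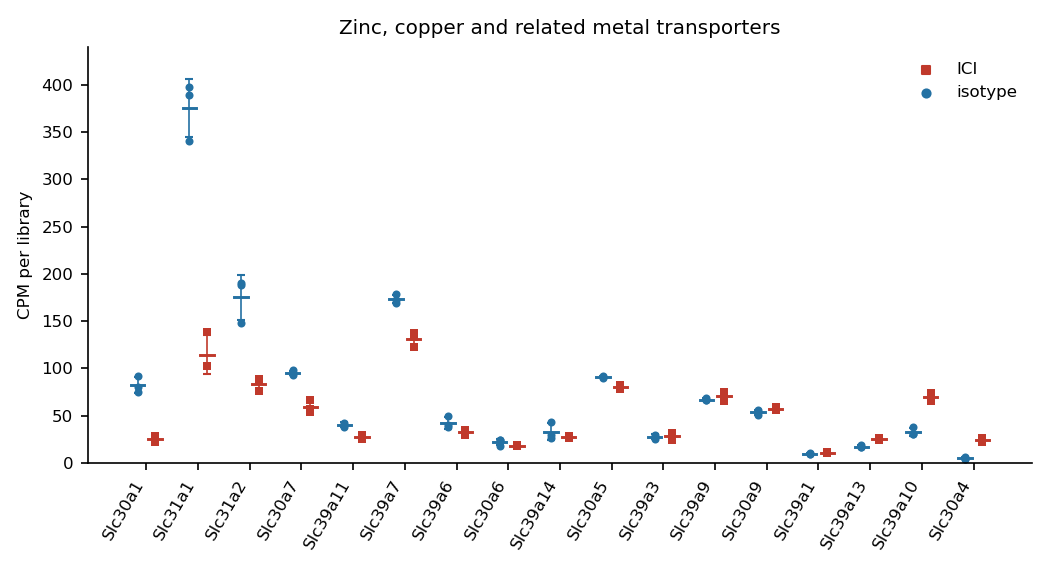
CPM of the 17 zinc and copper transporter genes in each library (squares ICI, circles isotype), with the group mean as a line and the SD as a bar, ordered by fold change from the largest fall. Slc31a1 and Slc31a2 show the widest gaps in CPM, Slc30a1 the largest fold fall, and Slc30a4 at the right the largest fold rise.

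Among 19 genes of the amino acid families, 3 rose (15.8%), 8 fell (42.1%) and 8 passed in neither direction, with 1 rise and 1 fall over 2-fold. The background at 5 CPM or more was 29.0% higher and 42.8% lower. With upper-quartile factors 7 of the 19 rose and 5 fell, while over all genes tested 6155 were then higher and 3849 lower. Slc38a2 (SNAT2), a sodium-coupled transporter of glutamine and other neutral amino acids, was at 556, 687 and 782 CPM in ICI and at 267, 316 and 291 CPM in isotype libraries. The groups were well separated, with a 2.01-fold rise (log2 1.01 ± 0.12 SE, edgeR adjusted p = 4.47e-05). Its neighbour on chromosome 15, Slc38a1 (SNAT1), with no protein-coding gene between them, went the other way: 75.7 to 91.3 CPM in ICI against 88.4 to 94.8 CPM in isotype libraries (log2 -0.35 ± 0.08 SE, lost with upper-quartile factors and library totals). Slc38a9, the lysosomal arginine sensor that signals to mTORC1, rose from 20.2 to 22.4 CPM in isotype up to 38.0 to 44.4 CPM in ICI libraries (log2 0.71 ± 0.09 SE). Slc36a1, the proton-coupled amino acid transporter of lysosomes, fell from 16.0 to 16.6 CPM to 9.95 to 12.2 CPM (log2 -0.75 ± 0.12 SE), so 2 carriers of the lysosomal membrane moved apart.

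The heavy chain Slc3a2 (CD98) was at 317, 313 and 317 CPM in ICI and at 429, 445 and 427 CPM in isotype libraries (log2 -0.66 ± 0.08 SE, edgeR adjusted p = 4.43e-05). The 4 light chains given here were lower or showed no call, and the cystine transporter was among the genes left out by name. Slc7a8 (LAT2) measured 242, 228 and 262 CPM against 290, 383 and 303 CPM (log2 -0.62 ± 0.12 SE), and Slc7a6 had a log2 difference of -0.61 with ranges that overlapped (14.4 to 18.9 against 18.8 to 26.1 CPM). Slc7a7 differed by log2 -0.34 and lost its call with upper-quartile factors and library totals. Slc7a5 (LAT1) was not called: 38.2, 55.5 and 44.5 CPM against 43.1, 63.0 and 33.7 CPM, with a log2 difference of -0.22 ± 0.26 SE (edgeR adjusted p = 0.483), and isotype replicates 2 and 3 enclosed all ICI values. Per kilobase of transcript, Slc3a2 averaged 133 CPM, Slc38a2 104 CPM, Slc7a8 69.7 CPM, Slc7a7 27.8 CPM, Slc7a5 13.2 CPM and Slc7a6 5.13 CPM over the 6 libraries, so Slc7a8 was the most abundant of these 4 light chains.

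Slc1a5 (ASCT2), another glutamine carrier, was at 111 to 136 CPM in ICI and 70.4 to 101 CPM in isotype libraries, without overlap, but its log2 difference of 0.24 ± 0.14 SE did not pass (edgeR adjusted p = 0.167). The taurine transporter Slc6a6 differed by log2 -0.02 ± 0.09 SE (373 to 438 against 336 to 386 CPM). Slc43a3, placed here by family number although it is known as a purine nucleobase transporter, had the largest fall of the class, at 11.1, 8.05 and 6.64 CPM against 27.8, 23.2 and 29.3 CPM (3.57-fold lower, log2 -1.84 ± 0.19 SE, edgeR adjusted p = 2.50e-05). The separation was complete, and the ICI libraries themselves spread from 6.64 to 11.1 CPM.

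Genes around amino acid supply were counted from lists chosen by function. Over all genes tested, 35.0% were called higher and 33.9% lower. Of 18 tested genes of the amino acid response, which ATF4 directs, 7 were higher, 6 lower and 5 in neither direction. Atf4 itself stood at 262 to 307 CPM in ICI and 127 to 146 CPM in isotype libraries (log2 0.85 ± 0.09 SE). The serine synthesis enzyme Psat1 went the other way, with 13.5, 22.3 and 15.4 CPM against 83.3, 101 and 80 CPM (log2 -2.57 ± 0.20 SE). Of 29 tested genes of lysosomal nutrient sensing, 4 were higher, 10 lower and 15 in neither direction (8 and 8 with upper-quartile factors). Over all genes tested those factors gave 6155 higher and 3849 lower. The mTORC1 inhibitor Sesn1 was at 196 to 263 CPM against 32.4 to 48.5 CPM (log2 2.33 ± 0.17 SE), while Lamtor5 and Lamtor2, subunits of the lysosomal Ragulator scaffold, differed by log2 -1.08 and -1.04.

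The 3 peptide transporters each behaved differently. Slc15a2 (PEPT2), a proton-coupled carrier of dipeptides, was at 14.5, 21.2 and 15.8 CPM in ICI and 3.05, 3.33 and 6.80 CPM in isotype libraries, 3.39-fold higher (log2 1.76 ± 0.30 SE, edgeR adjusted p = 0.00117). Its mean in isotype libraries was under 5 CPM, so the threshold favoured a rise. Slc15a3, an endolysosomal histidine and peptide carrier, was at 37.1, 50.9 and 28.9 CPM against 67.9, 59.9 and 66.1 CPM, 1.90-fold lower (log2 -0.93 ± 0.20 SE, edgeR adjusted p = 0.00397). In Slc15a3, 28.1% of exon bases overlap Tmem132a on the opposite strand, and the libraries do not keep strand. Slc15a4, its endolysosomal relative, was not called (84.8 to 105 against 70.5 to 77.2 CPM, log2 0.16 ± 0.10 SE, edgeR adjusted p = 0.152), although its ranges did not overlap and it was called higher under 4 of 18 alternatives (upper-quartile factors, library totals, the strict filter and without ICI replicate 2). Slc15a4 is known to hold the adaptor TASL, which recruits IRF5. Tasl was called higher (46.0 to 62.1 against 31.7 to 39.9 CPM, log2 0.37 ± 0.13 SE), a call kept under 11 of 18 alternatives and lost without ICI replicates 1 or 2 and without isotype replicates 1 or 2, and Irf5 was lower (279 to 309 against 452 to 553 CPM, log2 -0.94 ± 0.11 SE).

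Sugar, inositol and monocarboxylate carriers included some of the widest differences. Of 15 genes of these families, 5 rose (33.3%), 7 fell (46.7%) and 3 passed in neither direction. The background at 5 CPM or more was 29.0% higher and 42.8% lower. Slc5a3 (SMIT1), which imports the osmolyte myo-inositol with sodium, was at 81.9, 88.8 and 102 CPM in ICI and 5.65, 6.29 and 7.22 CPM in isotype libraries, 12.4-fold higher (log2 3.63 ± 0.12 SE, edgeR adjusted p = 1.49e-08). Slc2a3 (GLUT3), a high-affinity glucose transporter, was at 44.0, 46.5 and 51.1 CPM against 9.51, 8.80 and 9.14 CPM, 4.47-fold higher (log2 2.16 ± 0.10 SE, edgeR adjusted p = 1.04e-07). In both genes the replicates of a group lay close together and far from the other group. Slc16a7 (MCT2), a monocarboxylate carrier, was at 58.1 to 63.4 CPM against 11.0 to 14.9 CPM, 4.17-fold higher (log2 2.06 ± 0.12 SE). Slc2a8 (GLUT8), an intracellular hexose carrier, was at 15.6 to 22.9 CPM against 7.95 to 10.1 CPM (log2 0.95 ± 0.15 SE).

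Slc2a6 (GLUT6), a hexose transporter of lysosomes, moved opposite to the other Slc2 members: 33.2, 39.6 and 30.1 CPM in ICI against 107, 128 and 81.1 CPM in isotype libraries (3.53-fold lower, log2 -1.82 ± 0.19 SE, edgeR adjusted p = 8.88e-05). Per kilobase of transcript the mean over the libraries was 32.6 CPM for Slc2a6, 7.12 CPM for Slc2a3 and 6.80 CPM for Slc2a8. Slc37a2, a sugar-phosphate exchanger of the endoplasmic reticulum that is abundant in macrophages, fell 2.19-fold, with 94.5, 61.5 and 90.5 CPM against 160, 142 and 168 CPM (log2 -1.13 ± 0.15 SE). Slc45a4 differed by log2 -0.60 (73.8 to 85.2 against 100.3 to 108 CPM). Partner proteins of the monocarboxylate carriers were lower: embigin (Emb) at 106 to 113 against 292 to 341 CPM (log2 -1.76 ± 0.10 SE) and basigin (Bsg) at 216 to 237 against 327 to 394 CPM (log2 -0.91 ± 0.09 SE). Of 9 genes listed as partners of solute carriers, 3 were higher, 5 lower and 1 in neither direction, beside 35.0% higher and 33.9% lower over all genes tested.

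Ion exchangers of acid, bicarbonate and chloride split between rises and falls: of 16 genes 5 rose (31.2%), 6 fell (37.5%) and 5 passed in neither direction. The background at 5 CPM or more was 29.0% higher and 42.8% lower. With upper-quartile factors 8 of the 16 rose and 3 fell, while over all genes tested 6155 were then higher and 3849 lower. Slc9a9 (NHE9), a sodium and proton exchanger of endosomes, was at 267, 216 and 268 CPM in ICI and 17.6, 13.8 and 31.4 CPM in isotype libraries. The groups were far apart although isotype replicate 3 was well above its group, and the rise was 10.4-fold (log2 3.38 ± 0.32 SE, edgeR adjusted p = 1.83e-04). The chloride importer Slc12a2 (NKCC1) was at 29.2, 33.0 and 25.2 CPM against 6.40, 9.37 and 7.68 CPM, 3.26-fold higher (log2 1.70 ± 0.17 SE). Its relative Slc12a9 fell 2.14-fold (36.1 to 41.5 against 65.5 to 75.6 CPM), and the potassium and chloride exporter Slc12a7 (KCC4) was not called (152 to 166 against 139 to 165 CPM, log2 -0.10 ± 0.10 SE). Slc26a11 rose 2.19-fold with a wide spread, at 21.3, 14.7 and 27.9 CPM against 7.28, 7.42 and 10.6 CPM (log2 1.13 ± 0.23 SE).

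Slc4a11, a proton-linked transporter of family 4, had the largest fall of all members, at 3.33, 2.95 and 3.25 CPM in ICI and 16.6, 17.2 and 11.9 CPM in isotype libraries (5.51-fold lower, log2 -2.46 ± 0.19 SE, edgeR adjusted p = 2.62e-06). It belonged to the 2 members under 5 CPM in ICI libraries. Slc9a7 (NHE7), a Golgi exchanger encoded on the X chromosome, had separate ranges but no call (12.8, 12.2 and 22.0 CPM against 7.07, 6.08 and 11.7 CPM, log2 0.70 ± 0.29 SE, edgeR adjusted p = 0.0662), and was called higher under 7 of 18 alternatives: upper-quartile factors, library totals, the strict filter, DESeq2, the replicate block, without isotype replicate 3 and replicates 1 and 2 alone. In both groups its replicate 3, the library with Xist, was highest, at 1.76 times the mean of replicates 1 and 2 in ICI and 1.78 times in isotype. This gene was singled out after its values were seen. Of the 156 members, 27 were highest in replicate 3 of both groups and 15 lowest, and 3 exceeded 1.3 times in both groups: Slc9a7, Slc26a11 and Slc18a2. Isotype replicate 3 was the highest isotype library for 26 of the 39 members called higher, 15 of the 71 called lower and 15 of the 46 not called. ICI replicate 3 was the highest ICI library for 23, 28 and 22 of them. The share over all genes was not counted. Isotype replicate 3 also had the lowest monocyte marker sum of its group, 3909 CPM against 6365 and 8246 CPM. Why replicate 3 was highest for these members was not tested.

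Carriers of calcium and magnesium gave 2 rises, 1 fall and 2 without a call among 5 genes, beside a background of 29.0% higher and 42.8% lower. The magnesium transporter Slc41a1 rose 2.05-fold, from 17.3, 20.5 and 21.2 CPM in isotype to 47.1, 42.8 and 49.2 CPM in ICI libraries (log2 1.04 ± 0.10 SE). Slc8a1 (NCX1), the sodium and calcium exchanger abundant in heart muscle, was called lower at log2 -0.31 ± 0.10 SE (edgeR adjusted p = 0.0179), with overlapping values of 42.8 to 48.3 against 44.0 to 52.8 CPM, and lost the call under 7 of 18 alternatives, among them without ICI replicate 1 and without isotype replicates 1 or 2. Cardiomyocyte markers were higher in ICI libraries, with 6 markers summing to 28.2 to 36.1 CPM against 3.97 to 11.3 CPM, and 5 of 5 tested markers were called higher. Their part in the level of Slc8a1 was not tested.

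Carriers of vesicles, organic ions and urea held the 3 carriers with the largest fold differences. Slc18b1, a vesicular transporter of polyamines, was at 10.7, 10.8 and 9.99 CPM in ICI and 0, 0.041 and 0 CPM in isotype libraries. That is 714 counts against 1, a ratio of 891.4 (95% exact interval 159.5 to 35255.9, counting error only; edgeR adjusted p = 6.12e-08). Slc22a17, the receptor for lipocalin-2 among the organic ion carriers, was at 11.9, 7.30 and 10.4 CPM against 0.14, 0.041 and 0.20 CPM, 669 counts against 11 (64.2-fold by the fit, with an SE of 0.38 on the log2 scale, edgeR adjusted p = 6.61e-07). Slc14a1, the urea transporter known from red cells and vessel walls, was at 34.8, 30.4 and 35.7 CPM against 0.47, 0.65 and 1.53 CPM (32.3-fold, log2 5.01 ± 0.28 SE, edgeR adjusted p = 1.45e-06), and without isotype replicate 3, its highest isotype library, the log2 difference was 5.67. All 3 were present in every ICI library and near absent from isotype libraries. They belong to the 10 members that passed the threshold through ICI libraries alone.

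Transcripts of other cell types also differed. Erythroid markers summed to 19.3 to 38.9 CPM in ICI against 0.32 to 2.55 CPM in isotype libraries, with 4 of 4 tested called higher. Endothelial markers summed to 29.0 to 46.6 CPM against 18.6 to 26.0 CPM, with 3 of 4 tested called higher, Cdh5 at a mean of 1.22 CPM and Cldn5 at 0.341 CPM in ICI libraries. Smooth muscle and pericyte markers summed to 15.6 to 22.2 CPM against 2.77 to 3.46 CPM, with 4 of 4 called higher. The part of these 3 lists, and of the resident macrophage markers given earlier, in the level of Slc14a1 was not tested. Fibroblast markers summed to 50.2 to 145 CPM against 4.90 to 8.07 CPM (5 of 5 called higher), and platelet markers to 4.95 to 11.6 CPM against 0.51 to 0.53 CPM (1 of 2 tested called higher). Among leukocytes other than macrophages, B cell markers summed to 192 to 660 CPM in ICI against 3.86 to 8.65 CPM in isotype libraries (4 of 4 called higher), conventional dendritic cell markers to 192 to 255 CPM against 27.1 to 50.6 CPM (4 of 5 higher and 1 lower) and NK cell markers to 48.6 to 74.9 CPM against 19.02 to 25.6 CPM (4 of 4 higher). Neutrophil markers summed to 486 to 535 CPM against 374 to 468 CPM (2 of 5 higher and 3 in neither direction, median log2 -0.14). The part of these cell types in the members' levels was not tested. Slc18a2 (VMAT2), which loads monoamines into vesicles, was at 5.53, 6.03 and 8.22 CPM against 2.88, 3.93 and 4.69 CPM (log2 0.58 ± 0.21 SE, edgeR adjusted p = 0.0353). Mast cell markers, 3 of 4 tested called higher, summed to 26.8 to 71.5 CPM against 12.5 to 24.4 CPM and were highest in replicate 3 of both groups, as Slc18a2 was; their part was not tested. The call of Slc18a2 was lost without ICI replicate 3 and without isotype replicates 1 or 2. The nucleotide carrier Slc17a9 rose from 4.34 to 4.81 CPM to 7.89 to 9.39 CPM (log2 0.75 ± 0.15 SE), and the lysosomal sialic acid exporter Slc17a5 showed no call (27.2 to 30.6 against 21.7 to 27.3 CPM, log2 0.08 ± 0.11 SE). Both Slc18a2 and Slc17a9 were under 5 CPM in isotype libraries, so the threshold favoured a rise.

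Among the organic ion carriers, the carnitine importer Slc22a5 (OCTN2) rose from 12.9 to 13.9 CPM to 28.5 to 30.0 CPM (log2 0.91 ± 0.10 SE), and Slc10a3 fell by 0.56 on the log2 scale (23.2 to 24.5 against 29.7 to 31.3 CPM). Slc13a3, a sodium-coupled carrier of dicarboxylates grouped by family with phosphate and sulphate carriers, was at 11.6, 12.7 and 10.0 CPM against 2.20, 2.56 and 3.51 CPM (3.60-fold, log2 1.85 ± 0.20 SE, edgeR adjusted p = 2.10e-05). It was under 5 CPM in isotype libraries, so the threshold favoured a rise. The phosphate importers Slc20a1 and Slc20a2 had log2 differences of 0.20 ± 0.14 and 0.24 ± 0.17 SE and no call, though both were called higher with upper-quartile factors and library totals.

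**Figure D4:**
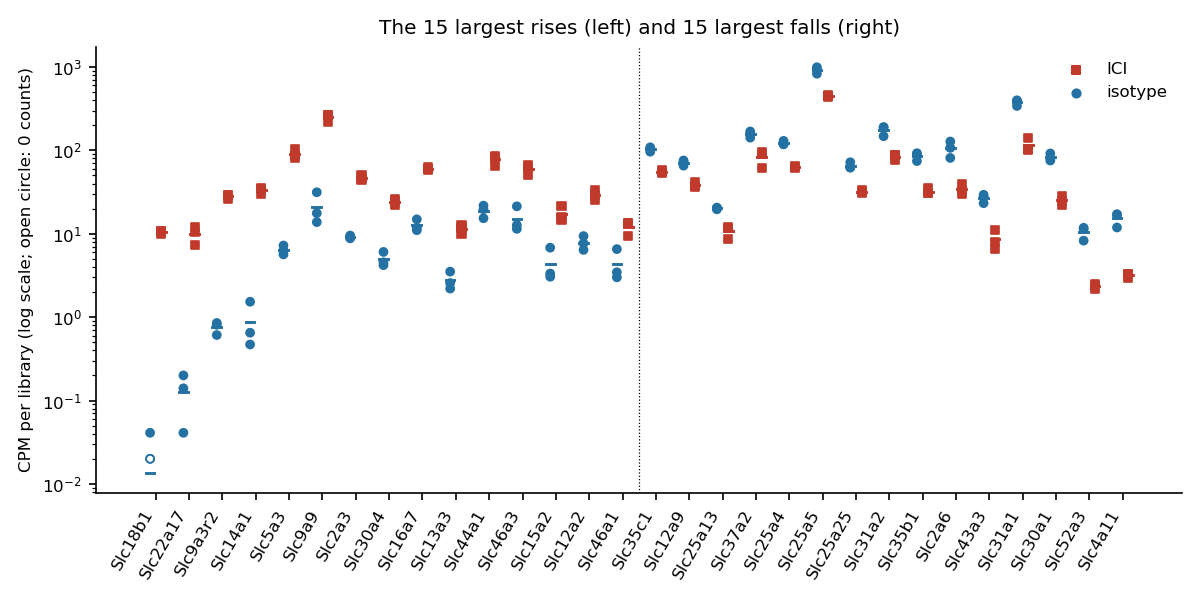
CPM per library (log scale) of the 15 largest rises and the 15 largest falls by fold change among called members whose groups do not overlap, in order of fold change; squares are ICI and circles isotype libraries, lines are group means and the open circle marks 0 counts, drawn at an arbitrary height (both zeros of Slc18b1 coincide). The rises start from mean isotype levels under 1 CPM in 4 genes, while 12 of the 15 falls are of genes with means above 10 CPM in both groups.

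Vitamin and choline carriers gave 3 rises (33.3%), 5 falls (55.6%) and 1 without a call among 9 genes. The background at 5 CPM or more was 29.0% higher and 42.8% lower. With upper-quartile factors the 9 genes gave 4 rises and 2 falls, while over all genes tested 6155 were then higher and 3849 lower. The choline transporter Slc44a1 was at 82.9, 65.8 and 86.3 CPM in ICI and 15.3, 19.7 and 21.7 CPM in isotype libraries (3.60-fold, log2 1.85 ± 0.14 SE, edgeR adjusted p = 3.14e-06). Slc46a3, a lysosomal carrier of the folate transporter family, was at 66.6, 50.5 and 63.1 CPM against 12.7, 11.4 and 21.3 CPM (3.45-fold, log2 1.79 ± 0.23 SE), and Slc46a1 (PCFT), the proton-coupled folate transporter, at 13.3, 9.40 and 13.3 CPM against 3.45, 3.00 and 6.54 CPM (2.39-fold, log2 1.25 ± 0.28 SE). In these 2 genes isotype replicate 3 was the highest isotype library and still lay under every ICI library. Slc46a1 was among the members with a mean under 5 CPM in isotype libraries, where the threshold favoured a rise. Slc52a3, a riboflavin transporter, fell 5.11-fold, at 2.37, 2.49 and 2.18 CPM against 11.8, 11.4 and 8.26 CPM (log2 -2.35 ± 0.20 SE, edgeR adjusted p = 5.22e-06). With Slc4a11, it was under 5 CPM in ICI libraries, where the threshold favoured a fall. Its relative Slc52a2 fell 1.59-fold (12.8 to 15.6 against 16.8 to 20.9 CPM). The vitamin C transporter Slc23a2 had overlapping ranges (118 to 147 against 146 to 177 CPM, log2 -0.41 ± 0.12 SE) and lost its call with upper-quartile factors, without ICI replicate 3 and without isotype replicate 2.

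All 3 nucleoside carriers were called, beside 71.7% of all tested genes at 5 CPM or more. Slc29a1 (ENT1), the equilibrative transporter of the plasma membrane, was at 162, 126 and 130 CPM in ICI and 67.4, 60.1 and 71.3 CPM in isotype libraries (1.83-fold higher, log2 0.87 ± 0.12 SE). Slc28a2 (CNT2), which concentrates purine nucleosides with sodium, was at 168, 177 and 155 CPM against 246, 284 and 233 CPM (1.76-fold lower, log2 -0.81 ± 0.11 SE). Slc29a3 (ENT3), its lysosomal counterpart, was at 164 to 183 against 206 to 225 CPM (log2 -0.50 ± 0.09 SE). The 2 equilibrative carriers therefore moved in opposite directions, with no overlap in either. Of the 2 fatty acid transport proteins of family 27, Slc27a1 was called lower (18.6 to 28.3 against 26.3 to 33.9 CPM, log2 -0.57 ± 0.16 SE, lost with upper-quartile factors) and Slc27a4 was not called.

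Carriers of the Golgi and endoplasmic reticulum, which supply nucleotide sugars, ATP and acetyl-CoA to the secretory pathway, numbered 21 genes. Of these 11 were lower (52.4%), 4 higher and 6 in neither direction, against 42.8% lower and 29.0% higher among all tested genes at 5 CPM or more. With upper-quartile factors 7 were lower and 7 higher, while over all genes tested 3849 were then lower and 6155 higher. Slc35b1, which exchanges ATP and ADP across the membrane of the endoplasmic reticulum, was at 30.7, 34.9 and 30.6 CPM in ICI and 92.4, 90.1 and 74.4 CPM in isotype libraries (3.07-fold lower, log2 -1.62 ± 0.12 SE, edgeR adjusted p = 1.72e-06). Slc35c1, the GDP-fucose transporter needed for selectin ligands, was at 53.3, 55.7 and 58.1 CPM against 105, 109 and 96.3 CPM (2.14-fold lower, log2 -1.10 ± 0.09 SE). Slc35a4 (137 to 149 against 181 to 213 CPM) and Slc35f6 (means of 94.0 ± 3.6 and 129 ± 5.3 CPM, SD) fell by 0.64 and 0.66 on the log2 scale. The 4 rises were small, from log2 0.39 for the CMP-sialic acid transporter Slc35a1 (23.0 to 24.2 against 14.8 to 16.2 CPM) to 0.62 for Slc35g1, and none was over 2-fold. Slc35b2, which brings the sulphate donor PAPS into the Golgi, was not called (104 to 108 against 97.2 to 111 CPM, log2 -0.18 ± 0.08 SE), except without isotype replicate 2.

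Of the 29 mitochondrial carriers of family Slc25, 17 were lower (58.6%), 3 higher (10.3%) and 9 in neither direction, beside the same background of 42.8% lower and 29.0% higher. With library totals 11 were lower and 6 higher, while over all genes tested 3728 were then lower and 6254 higher. Outside the family, 54 of 127 members were lower, 36 higher and 37 in neither direction; no difference in shares was tested. Summed over the 29 genes, the level was 1826, 1888 and 1903 CPM in ICI and 2624, 2588 and 2445 CPM in isotype libraries. No member of the family rose over 2-fold, and 5 fell over 2-fold.

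Adenine nucleotide carriers led the falls. Slc25a5 (ANT2), which exchanges ADP for ATP across the inner membrane, was at 442, 460 and 453 CPM in ICI and 991, 947 and 830 CPM in isotype libraries (2.35-fold lower, log2 -1.23 ± 0.10 SE, edgeR adjusted p = 3.33e-06). Slc25a4 (ANT1), the isoform known from heart and skeletal muscle, was at 62.8, 60.9 and 64.0 CPM against 130, 118 and 119 CPM (2.25-fold lower, log2 -1.17 ± 0.08 SE, edgeR adjusted p = 1.39e-06). The cardiomyocyte markers given above were higher in ICI libraries, and their part in the level of Slc25a4 was not tested. Slc25a25, a calcium-regulated carrier of ATP-Mg and phosphate, was at 30.8, 33.4 and 31.5 CPM against 62.5, 71.9 and 62.0 CPM (2.36-fold lower, log2 -1.24 ± 0.10 SE), while its relative Slc25a24 was called higher at log2 0.31 ± 0.11 SE (52.2 to 63.9 against 35.0 to 42.5 CPM), a call lost without ICI replicates 1 or 2 and without isotype replicates 1 or 3. Slc25a3, the phosphate carrier, differed by log2 -0.37 ± 0.09 SE with overlapping ranges (271 to 324 against 320 to 351 CPM) and lost the call with upper-quartile factors and library totals. Per kilobase of transcript, Slc25a5 averaged 554 CPM over the libraries and Slc25a3 197 CPM, the highest values among all 156 members.

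The 2 aspartate and glutamate carriers of the malate-aspartate shuttle fell together. Slc25a12 (aralar) was at 49.5, 50.7 and 50.2 CPM against 87.7, 93.0 and 93.6 CPM (2.10-fold lower, log2 -1.07 ± 0.08 SE, edgeR adjusted p = 1.71e-06), and Slc25a13 (citrin) at 11.7, 8.60 and 12.1 CPM against 20.6, 20.3 and 19.6 CPM (2.15-fold lower, log2 -1.11 ± 0.14 SE). Slc25a11, the oxoglutarate and malate carrier of the same shuttle, fell 1.43-fold (90.5 to 96.7 against 112 to 122 CPM). The citrate carrier Slc25a1 fell 1.61-fold, at 34.9, 31.7 and 32.3 CPM against 45.5, 47.3 and 45.5 CPM (log2 -0.68 ± 0.09 SE). Slc25a39, which imports glutathione, was at 63.3 to 76.6 against 117 to 126 CPM (log2 -0.99 ± 0.09 SE), and Slc25a44, a carrier of branched-chain amino acids, at 35.4 to 37.7 against 54.0 to 62.4 CPM (log2 -0.86 ± 0.09 SE).

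Of the 29 genes, 12 were not lower. Slc25a36, a pyrimidine nucleotide carrier, rose 1.85-fold, from 41.2, 40.2 and 51.2 CPM in isotype to 86.2, 97.0 and 98.3 CPM in ICI libraries (log2 0.89 ± 0.10 SE, edgeR adjusted p = 3.38e-05), and was the only family member called higher against a 1.5-fold change. Slc25a37 (mitoferrin 1), which brings iron to the matrix for heme synthesis, was not called (37.6 to 43.7 against 31.7 to 38.6 CPM, log2 -0.05 ± 0.11 SE, edgeR adjusted p = 0.709). The erythroid markers given above were higher in ICI libraries, and their part in the level of Slc25a37 was not tested. The NAD carrier Slc25a51 showed no call either (49.4 to 52.4 against 37.7 to 41.8 CPM, log2 0.13 ± 0.09 SE). Slc25a16 was called lower at an edgeR adjusted p of 0.0379 with ranges of 21.7 to 22.5 against 21.8 to 23.6 CPM, and kept the call under 5 of 18 alternatives; of the single libraries left out, it kept the call without isotype replicate 3 alone.

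**Figure D5:**
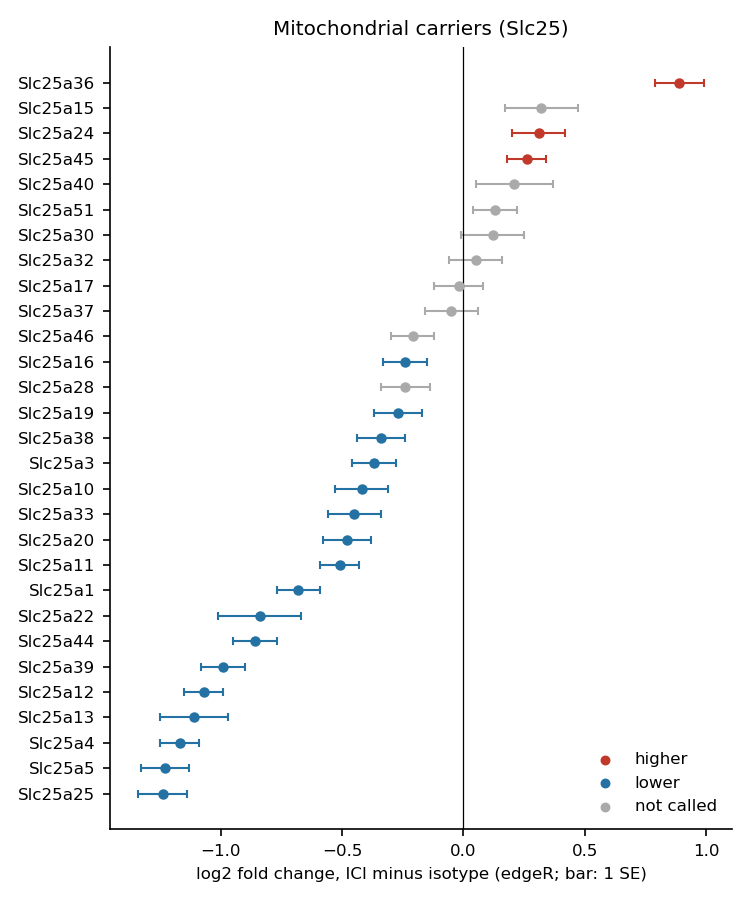
log2 fold change (ICI minus isotype, edgeR) of the 29 Slc25 genes with 1 SE as a bar, sorted and coloured by the call. Slc25a25, Slc25a5, Slc25a4, Slc25a13 and Slc25a12 lie beyond -1, and Slc25a36 stands alone at the top.

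The genes with Slc symbols that encode no carrier included 1 of the largest rises. Slc9a3r2 (NHERF2), a PDZ scaffold that holds exchangers and receptors at the membrane, was at 29.0, 26.3 and 29.5 CPM in ICI and 0.61, 0.85 and 0.81 CPM in isotype libraries (32.4-fold higher, log2 5.02 ± 0.16 SE, edgeR adjusted p = 1.46e-08). It was 1 of the 10 members under 5 CPM in isotype libraries, for which the threshold favoured a rise. Slc9a3r1 (NHERF1), the relative with the same function, went the other way, at 99.4, 93.0 and 103 CPM against 162, 166 and 165 CPM (1.92-fold lower, log2 -0.94 ± 0.08 SE, edgeR adjusted p = 3.66e-06). The groups were separate for both scaffolds. NHERF2 is known from endothelium, and endothelial markers summed to 29.0 to 46.6 CPM in ICI against 18.6 to 26.0 CPM in isotype libraries. Resident macrophage markers summed to 8085 to 9154 CPM against 250 to 322 CPM. The part of either cell type in Slc9a3r2 was not tested.

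Carriers of the same kind under other symbols were counted from a list of function. Of 31 tested, 16 were lower, 4 higher and 11 in neither direction, beside 33.9% lower and 35.0% higher over all genes tested. The mitochondrial carriers Ucp2 (1004 to 1069 against 1732 to 1798 CPM, log2 -0.97 ± 0.09 SE), Mtch2 (66.6 to 71.0 against 128 to 145 CPM, log2 -1.16 ± 0.09 SE) and the pyruvate carrier subunit Mpc1 (60.3 to 70.8 against 110 to 124 CPM, log2 -1.08 ± 0.09 SE) were lower, as most Slc25 genes were. The lysosomal cysteine importer Mfsd12 was at 59.1 to 72.1 against 163 to 174 CPM (log2 -1.54 ± 0.10 SE), and the lysosomal cystine exporter Ctns at 38.7 to 49.7 against 18.5 to 20.8 CPM (log2 1.01 ± 0.11 SE). Slco2b1, an organic anion transporter, was at 500.3, 389 and 437 CPM in ICI and 0.27, 0.41 and 0.36 CPM in isotype libraries (log2 10.12 ± 0.18 SE, edgeR adjusted p = 1.03e-09), and Slco3a1 of the same family at 31.0, 43.8 and 20.3 CPM against 193, 199 and 182 CPM (log2 -2.79 ± 0.29 SE).

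Of the 110 called members, 47 kept the call in the same direction under all 18 alternative settings of the test, 30 lost it only against a 1.5-fold change, and 33 lost it under at least 1 other setting. None was called in the opposite direction under any of them. Of the 46 members without a call, 28 were called under at least 1 alternative, so a missing call does not show that a level was equal. The replicates within a group were close, with a median coefficient of variation of 8.45% in ICI and 8.27% in isotype libraries over the members.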

How the data were processed

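RNA was measured in 6 libraries, 3 ICI and 3 isotype, made with a non-directional SMART-seq V4 kit and sequenced as read pairs, per the labels' protocols. The authors deposited raw counts per Ensembl gene without normalization. Per the submitters' processing notes the tools were STAR 2.7.10a and Salmon 1.10.1 with the build GRCm39; whether the whole numbers are rounded estimates, the annotation and the strand setting: not given in the sources used here. Columns were tied to samples by library name. Whether a replicate is 1 mouse or a pool is not given in the labels.

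Symbols were matched by Ensembl identifier (52029 identifiers, 91.3%). Genes were tested in edgeR 4.0.16 by its quasi-likelihood F test (R 4.3.3, limma 3.58.1; TMM factors, robust estimation, filterByExpr with a minimum count of 10), with Benjamini-Hochberg adjustment over 14575 genes and calls at an adjusted p under 0.05. Fold changes and their standard errors (SE, the log2 fold change over the root of F) come from this fit, and CPM are on library totals, so a fitted fold can differ from a ratio of CPM. Levels per kilobase used the longest protein-coding transcript of GENCODE M21. The fit was tested on simulated data with known changes in few genes, balanced between rises and falls. That simulation could not test the choice of scaling. Intervals on low counts cover counting error only, since reads without molecular identifiers are not independent molecules. Replicates differed by more than sampling noise (chi-square per degree of freedom 13.8 to 37.4), so none was merged.

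Alternatives were RLE, upper-quartile and no factors, a strict filter (at least 50 counts in each of 3 libraries) or none, DESeq2 1.42.0, limma-voom, a test against a 1.5-fold change, the replicate block, each replicate left out, replicates 1 and 2 alone, removal of a trend on transcript length (lowess span 0.3) and other thresholds of the member rule; the legacy quasi-likelihood fit was added after the data were seen. The members and the gene lists were chosen with earlier results of these data known. The rule for named genes took the 15 largest rises and 15 largest falls among called members without overlap, the 3 highest and the 3 with the smallest p in each class, a fixed set of amino acid, mitochondrial and ion carriers, up to 3 genes by smallest p from each list and the genes beside the threshold; other genes named to complete a class or a complex were chosen after their values were seen. Classes follow family number, so single members carry other solutes. Results for 2 genes are not reported here.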

Additional observations from a re-analysis of the deposited data

How the results depend on the processing

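The counts of members moved least with RLE factors (39 higher, 69 lower), DESeq2 (39 and 70), limma-voom (39 and 69), the legacy fit (39 and 71) and no filter (37 and 70). The count of members called lower moved with upper-quartile factors to 46 and with library totals alone to 45, because both shift the centre of all genes, and the strict filter gave 50 and 61. Over all genes tested the strict filter gave 4133 and 4125. Against a 1.5-fold change, a stricter question, 3110 genes were higher and 2410 lower over all, with 24 and 23 members. Each replicate left out in turn gave 33 to 38 members higher and 64 to 73 lower, beside 4624 to 5068 and 4500 to 4870 over all genes tested. Removing the length trend gave 37 and 76, beside 4886 and 4848. A threshold of 1 CPM gave 191 members with 56 higher and 82 lower, and 10 CPM gave 142 members with 30 and 69. Of the 46 members without a call, 28 changed sign under at least 1 alternative, 8 of them taken by the rule for named genes. Of these 8, as the scaling shifted all genes alike, with upper-quartile factors Slc10a7 was at 0.02, Slc12a7 at 0.09, Slc25a37 at 0.14, Slc27a4 at 0.16, Slc35b2 at 0.00, Slc6a6 at 0.16 and Slc8b1 at 0.09 (log2), and with library totals alone at 0.04, 0.11, 0.16, 0.18, 0.02, 0.18 and 0.11 in that order. The strict filter gave Slc25a37 0.04, Slc27a4 0.06 and Slc6a6 0.07. With a replicate left out, Slc25a37 ran from -0.16 to 0.02, Slc27a4 from -0.23 to 0.15, Slc6a6 from -0.08 to 0.04, Slc7a5 from -0.44 to 0.06 and Slc8b1 from -0.25 to 0.01; the cause was not tested. Same-numbered samples correlated at 0.034, 0.062 and 0.128 in their deviations from the group means, so the numbers were not taken to pair the samples. With the replicate block 39 members were higher and 71 lower, 5079 and 4912 over all genes, and 4 members lost the call; not every sample correlated best with its own number. Depth limits members at few counts: Slc18b1 had 1 isotype count and Slc22a17 had 11.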
